A study of Mus musculus with 16 samples.

Results

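Regions that opened in macrophages after LPS, and that were still called open when an LXR agonist had been given first, are described here. Of 37648 regions made by merging the ATAC-seq peaks of 4 lists wherever they overlapped by at least 1 bp, 1011 were selected on the measured presence of peaks, since they held peaks in the LPS and T0-LPS lists and none in the Veh or T0 list. That was 2.69% of all regions, a share set by the rule itself. They are called kept LPS-opened regions below, and members in the plots. The LPS-opened regions as a whole, those with an LPS peak and no Veh or T0 peak, numbered 1918, or 5.88% of regions with an LPS peak. The other 907 of them had no T0-LPS peak and are called LPS-only regions.

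ATAC-seq uses the Tn5 transposase to cut and tag accessible DNA. It was run on macrophages grown from C57BL/6J bone marrow in L-cell conditioned medium and deprived of serum for a day, with 50000 cells in each of 16 libraries. On day 8, vehicle (DMSO, Veh) or T0901317, a synthetic agonist of LXR, at 500 nM (T0) was added for 3 h. Cells of the Veh and T0 groups were harvested then, and those of the LPS and T0-LPS groups got LPS at 10 ng/mL in the same medium for another 2 h, so that a group with LPS had also been cultured for longer. The authors pooled the 4 libraries of a group for peak calling and kept peaks at known macrophage enhancers. A value here therefore has no replicate spread and no p-value, and the 95% intervals (Wilson for a share, Newcombe for a difference of shares, log interval for a ratio) cover counting error only. Start sites of all 10 macrophage markers, such as Spi1 and Cd68, had a peak within 1 kb in the LPS and T0-LPS lists, against 4 and 3 of 16 markers of other cell types. In the Veh and T0 lists 9 and 8 macrophage markers had one, against 4 and 3 of the others. The filter on macrophage enhancers favours such a contrast, so it is no test of cell identity.

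LPS is sensed by TLR4, which signals through MyD88 and TRIF to release NF-kB dimers from their IkB inhibitors and to activate AP-1 and interferon regulatory factors. In macrophages these factors bind enhancers already held open by lineage factors such as PU.1, and also open further, latent sites. LXR is a nuclear receptor for oxysterols that pairs with RXR on repeats of the AGGTCA element, activates cholesterol efflux genes such as Abca1, and is known for restraining inflammatory genes. A region opened by LPS can thus be asked whether prior LXR activation leaves it in the list.

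The following are 200-bp sequences at the midpoint of kept LPS-opened regions, on the plus strand of GRCm38 (mm10), with each match to the NF-kB consensus in capitals. The first 8 are shown because each lies near a gene of the LPS response or of survival and holds a match, the next 2 because they are the strongest kept regions with a match in an intron, and the last 2 because they are the strongest kept regions without a match to any motif searched.
Tnf, downstream, chr17:35199014-35199213: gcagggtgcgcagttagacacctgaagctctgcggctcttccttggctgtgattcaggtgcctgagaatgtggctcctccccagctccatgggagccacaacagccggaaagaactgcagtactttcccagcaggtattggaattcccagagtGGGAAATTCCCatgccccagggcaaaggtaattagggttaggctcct
Ccl5, upstream, chr11:83534827-83535026: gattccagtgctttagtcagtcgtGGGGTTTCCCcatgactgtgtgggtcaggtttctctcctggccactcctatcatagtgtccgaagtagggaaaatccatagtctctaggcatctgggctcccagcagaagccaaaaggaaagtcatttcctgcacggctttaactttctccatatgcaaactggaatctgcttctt
Nfkb1, intron, chr3:135670757-135670956: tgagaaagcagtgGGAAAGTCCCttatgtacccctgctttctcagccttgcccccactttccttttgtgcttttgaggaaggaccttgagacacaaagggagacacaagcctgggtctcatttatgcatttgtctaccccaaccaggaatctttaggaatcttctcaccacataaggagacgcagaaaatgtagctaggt
Tnip1, start site, chr11:54962968-54963167: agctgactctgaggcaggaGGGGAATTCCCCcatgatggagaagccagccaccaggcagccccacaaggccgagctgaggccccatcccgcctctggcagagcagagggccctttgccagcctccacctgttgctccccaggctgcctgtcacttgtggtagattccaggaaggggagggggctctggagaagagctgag
Zc3h12c, upstream, chr9:52174699-52174898: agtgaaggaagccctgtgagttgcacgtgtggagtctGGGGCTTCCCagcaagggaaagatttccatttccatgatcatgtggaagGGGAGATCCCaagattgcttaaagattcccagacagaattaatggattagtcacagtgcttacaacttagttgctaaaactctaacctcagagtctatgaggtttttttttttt
Ripk2, upstream, chr4:16198835-16199034: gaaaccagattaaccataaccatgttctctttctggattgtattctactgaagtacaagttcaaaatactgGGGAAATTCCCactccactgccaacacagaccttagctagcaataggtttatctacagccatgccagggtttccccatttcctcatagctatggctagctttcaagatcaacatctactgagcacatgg
Irf1, upstream, chr11:53762947-53763146: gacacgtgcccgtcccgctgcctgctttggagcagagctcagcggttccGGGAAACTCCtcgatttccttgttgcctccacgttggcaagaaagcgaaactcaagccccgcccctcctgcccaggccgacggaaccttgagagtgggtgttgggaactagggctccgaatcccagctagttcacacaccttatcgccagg
Bcl2a1b, intron, chr9:89205463-89205662: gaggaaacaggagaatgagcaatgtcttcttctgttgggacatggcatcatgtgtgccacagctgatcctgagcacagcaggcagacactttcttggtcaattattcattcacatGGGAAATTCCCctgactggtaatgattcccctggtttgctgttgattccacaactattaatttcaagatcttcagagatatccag
Teddm2, far upstream, chr1:154032748-154032947: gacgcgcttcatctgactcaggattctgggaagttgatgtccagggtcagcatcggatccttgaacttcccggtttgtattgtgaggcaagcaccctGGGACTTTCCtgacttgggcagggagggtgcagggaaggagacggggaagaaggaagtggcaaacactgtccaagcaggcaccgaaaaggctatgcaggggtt
Mtrex, intron, chr13:112871706-112871905: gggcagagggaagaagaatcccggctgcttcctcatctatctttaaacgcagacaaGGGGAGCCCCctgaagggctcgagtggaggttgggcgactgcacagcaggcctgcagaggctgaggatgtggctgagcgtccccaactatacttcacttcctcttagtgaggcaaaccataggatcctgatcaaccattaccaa
Mfsd6, upstream, chr1:52734269-52734468: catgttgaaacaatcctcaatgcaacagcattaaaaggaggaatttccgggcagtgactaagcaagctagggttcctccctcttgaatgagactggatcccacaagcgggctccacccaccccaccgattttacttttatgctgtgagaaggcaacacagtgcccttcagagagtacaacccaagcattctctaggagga
3830406C13Rik, intron, chr14:12289902-12290101: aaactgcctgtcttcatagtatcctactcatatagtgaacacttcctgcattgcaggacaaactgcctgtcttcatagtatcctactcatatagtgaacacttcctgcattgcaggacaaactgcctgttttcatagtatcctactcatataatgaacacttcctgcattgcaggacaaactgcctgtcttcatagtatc

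The capitals in the Tnf, Ripk2 and Bcl2a1b regions spell the same 11 bases, in which a match on the plus strand and a match on the minus strand overlap by all but 1 base. In the Tnip1 region, 3 overlapping matches fall in 12 bases. In the last sequence a unit is repeated in tandem. Over all kept regions, 55 different forms of the NF-kB consensus were found out of 64 possible ones. The most frequent was GGGAAATTCC, in 28 kept regions (2.78%) and in 30 of 26422 regions with a peak in all 4 lists (0.114%). It was followed by GGGAATTTCC in 26 and GGGGAATTCC in 22 kept regions.

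Kept LPS-opened regions were weak to moderate peaks. The peak score, the number given with each peak, is not defined in the labels or files and was taken as the authors' peak caller's score, which grows with significance. It had a median of 160 in the LPS list (range 31 to 1079) and 126 in the T0-LPS list (range 45 to 953). The medians of whole lists were 319 and 292. Scores depend on the depth of a list, so strength was read as the percentile of the score within its own list, with medians of 21.6 in LPS and 15.2 in T0-LPS. The lowest 3 score deciles held 66.9% of kept regions in LPS (interval 63.9 to 69.7%) and 76.4% in T0-LPS (73.6 to 78.9%). LPS-only regions were weaker still, with a median LPS score of 104, and regions in all 4 lists were much stronger, at 394. LPS peaks had a median width of 277 bp and T0-LPS peaks one of 255 bp. Each list had 1 peak in 1005 of the 1011 regions. At the edge of the rule, the weakest kept regions had scores of 31 in LPS and 45 in T0-LPS. Just outside it were 1927 regions with LPS and T0-LPS peaks and a peak in only 1 of the other lists, 1876 of them in Veh, and their Veh or T0 score had a median of 149 and was under 100 in 334. The nearest Veh or T0 peak lay at a median of 2788 bp from a kept region, and at 33 bp in the closest case.

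Absence from the Veh and T0 lists does not show that no peak was called there. Peak names end in a number that went up from each peak to the next along every chromosome in all 4 lists. No header says what it is, and it was taken as the caller's running number, so that a gap in the numbers of the flanking peaks would leave room for a peak that was called and then removed. All values on room rest on this reading. There was no room in either list at 596 kept regions (59.0%, interval 55.9 to 61.9%), and room in both at 277 (27.4%). Room went with strength at the very top. Of the 10 strongest kept regions, ranked by the lower of the LPS and T0-LPS percentiles, 9 had room in both lists, and of the 100 strongest 32 did. The top region lay 6907 bp upstream of Mfsd6 (chr1:52734136-52734602), with scores of 1079 in LPS and 953 in T0-LPS, and had room in both lists. The next were in introns of Kcnma1, a potassium channel gene, with scores of 890 and 819, and at an untranslated exon of Rab30, with 887 and 830. The strongest kept region without room lay in an intron of Pik3ca, a catalytic subunit of PI3-kinase (chr3:32403090-32403572), with scores of 710 and 716. It was at percentile 85.4 in LPS and 88.7 in T0-LPS. Others without room lay in introns of Apbb1ip, an integrin adaptor, with scores of 530 and 604, and of Arhgap22, with 463 and 457, and a region within 1 kb of the start of Tgm2, transglutaminase 2, had 437 and 404. Of the central 200 bp at Apbb1ip, 97.5% is marked as repeat in the reference sequence, against a mean of 12.1% over kept regions. Reads there may be uncertain. Results below are given for the 596 regions without room where they bear on them.

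The share of LPS-opened regions that were kept was higher where they were stronger in LPS, up to the sixth decile of the score. Overall it was 52.7% (interval 50.5 to 54.9%), against 92.4% (92.1 to 92.7%) of regions with an LPS peak that also had a Veh or T0 peak. In the lowest LPS decile 28.5% were kept (226 of 793), in the second decile 53.1%, in the third 71.0% and in the fourth 90.3%. For other regions of the same deciles the shares were 53.6%, 71.6%, 89.5% and 96.8%. In deciles 4 to 6 together, 282 of 308 LPS-opened regions were kept, which was 91.6% against 98.5% of others, a difference of -6.94 points (interval -10.6 to -4.31). In deciles 7 to 10 it was 53 of 70, or 75.7% against 99.8%, and all 17 of the regions not kept there had room for a removed peak in the T0-LPS list. Of the 43 LPS-only regions in deciles 4 to 10, 40 had such room, against 339 of all 907. Among LPS-opened regions without room in Veh and T0, 54.5% were kept. Since presence in T0-LPS is what the rule used, these shares are a description. In the converse direction, 77.4% (75.01 to 79.5%) of the 1307 T0-LPS regions without a Veh or T0 peak held an LPS peak.

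**Figure D1:**
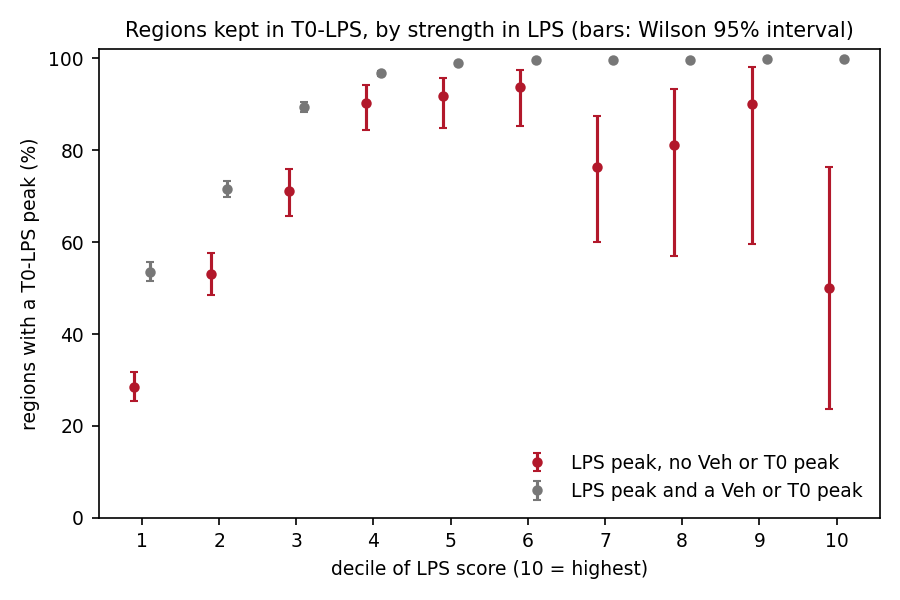
Share of regions with an LPS peak that also held a T0-LPS peak (y axis, %) by decile of the LPS score (x axis), for regions without (red) and with (grey) a Veh or T0 peak; points are shares and bars Wilson 95% intervals. The red points run from 28.5% to 90.3% over the first 4 deciles and lie below the grey points in all 10.

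Kept regions were not all of equal strength with and without the agonist. The score percentile was lower in T0-LPS than in LPS at 698 of 1011 (69.0%, interval 66.1 to 71.8%), with a median change of -4.56 points. It changed by at most 10 points at 641 regions (63.4%), was over 10 points lower at 299 and over 10 points higher at 71. Of the 28366 other regions with both peaks, 60.4% were lower, so that the difference was 8.69 points (interval 5.71 to 11.5). The median score percentile of these regions was higher to begin with. At equal mean percentile of the 2 lists, kept regions were more often lower than others in 6 of 6 strata, by 7.42 points on average. The interval of the difference excluded equal shares only at mean percentiles of 10 to 20 (2.70 to 13.5 points) and 30 to 40 (3.18 to 18.6 points). Ranked among regions with both peaks alone, 55.5% of kept regions (52.4 to 58.5%) were lower, with a median change of -1.09 points, against 49.3% of others. Stratified by the LPS decile the average difference was 16.1 points, and by the T0-LPS decile it was -2.68 points, so its sign depended on which list set the strata. Peaks were narrower in T0-LPS at 67.3% of kept regions with 1 peak in each list and at 63.8% of others, a difference of 3.46 points (0.441 to 6.34).

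**Figure D2:**
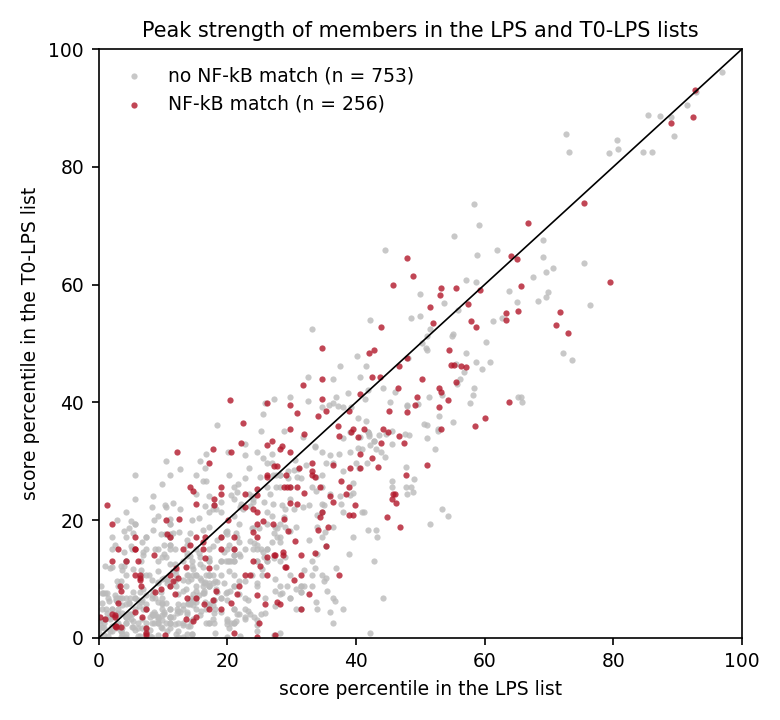
Score percentile of each kept LPS-opened region with reference sequence in the LPS list (x axis) and in the T0-LPS list (y axis), red with and grey without an NF-kB match; the line marks equal percentiles. Most points lie in the lower left, with medians of 21.6 and 15.2, and 69.0% of all 1011 lie below the line.

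The largest differences downward were at an intergenic region 220779 bp downstream of the start of Maf, a macrophage transcription factor gene, from percentile 42.1 in LPS to 0.859 in T0-LPS, and at one 16174 bp upstream of Nfe2l2, which encodes the oxidative stress factor NRF2, from 44.2 to 6.84. The largest differences upward were in introns of Ccnt1, from 5.72 to 27.7, and of Ciita, the class II MHC transactivator, from 44.5 to 65.8. These 4 regions had no room in Veh or T0. The median change differed in size between kinds of kept region. It was -2.47 points with an AP-1 match and -5.20 without, and -3.21 within 1 kb of a start site and -5.28 farther away. The shares that were lower had overlapping intervals, at 65.8% (58.8 to 72.2%) against 69.7% (66.5 to 72.8%) for AP-1. For start sites they were 66.1% (59.1 to 72.5%) against 69.6% (66.4 to 72.7%). Regions near start sites were also weaker in LPS, at a median percentile of 14.9 against 24.0. The median change was -4.08 points with an NF-kB match and -4.84 without, and the share that was lower was 66.8% (60.8 to 72.3%) against 69.7% (66.3 to 72.9%). Near inflammatory genes the median change was -4.86 against -4.54 elsewhere, and with an AGGTCA element -3.51 against -4.98 without one. For the AGGTCA element, the share that was lower was 70.3% (61.9 to 77.5%) with it and 68.8% (65.6 to 71.8%) without it. These intervals overlapped, and the shares differed in the opposite direction to the medians.

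NF-kB matches were more frequent in kept LPS-opened regions than in the other classes. A match on either strand of the central 200 bp was found in 256 of 1009 kept regions with reference sequence (25.4%, interval 22.8 to 28.1%). The share was 10.7% (8.85 to 12.9%) in LPS-only regions, 3.72% (3.50 to 3.96%) in regions of all 4 lists and 4.30% in all regions. Kept regions thus had a match 6.82 times as often as regions of all 4 lists (6.03 to 7.71), and 14.7 points more often than LPS-only regions (11.3 to 18.01). Over whole regions, which are longer in all 4 lists (median 482 bp against 299 bp), the ratio was 3.47 (3.14 to 3.84). Looked at the other way, 15.8% of all 1617 regions with a match were kept LPS-opened regions, against 2.09% of regions without one. Without room in Veh and T0 the share was 27.9%, and with room 21.8%.

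Peak strength, base composition and position were set beside the NF-kB share. In the lowest 3 LPS deciles, 20.3% of kept regions had a match against 10.3% of LPS-only regions and 2.10% of regions in all 4 lists. In deciles 4 to 6 it was 36.2% against 19.2% of just 26 LPS-only regions and 3.17%. In regions of 45 to 50% GC the ratio to regions of all 4 lists was 8.75 (6.91 to 11.1), and over 1 kb from every start site it was 6.96 (6.05 to 8.01). LPS-opened regions with a match were kept in 72.5% of cases (67.6 to 76.9%) and those without in 48.2% (45.7 to 50.7%). Their median LPS scores were 172 and 119. Within the lowest 3 deciles the shares were 60.6% and 40.9%, a difference of 19.7 points (12.7 to 26.4), and in deciles 4 to 10 they were 93.7% and 86.1%, a difference of 7.65 points (0.876 to 13.4). Regions with a match were still stronger within these strata, with median LPS scores of 126 against 111 and of 285 against 273. Strength was thus not fully matched.

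The matches lay at the centre of the regions. In the 50-bp bins within 100 bp of the midpoint, 6.96% of kept regions had a match per bin on average, against 0.607% per bin beyond 300 bp, which is 11.5 times as many. The same ratio was 3.71 in LPS-only regions and 1.48 in regions of all 4 lists. Beyond 300 bp the shares of LPS-only regions and regions of all 4 lists were 0.758% and 0.677%.

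**Figure D3:**
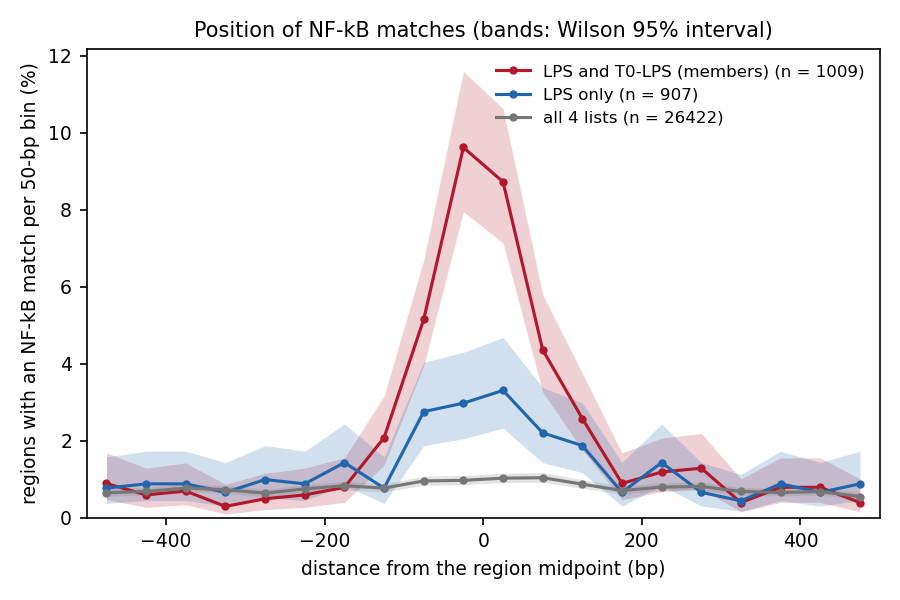
Share of regions with an NF-kB match in each 50-bp bin (y axis, %) by distance from the region midpoint (x axis, bp), for kept LPS-opened (red), LPS-only (blue) and regions of all 4 lists (grey), with Wilson 95% bands. The red curve peaks at 9.61% just beside the midpoint, the blue at 3.31% and the grey at 1.04%.

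Other motifs differed less. The C/EBP consensus, bound by myeloid lineage factors of that name, was found in 18.8% of kept regions (16.5 to 21.4%), 13.6% of LPS-only regions and 10.3% of regions in all 4 lists. At 45 to under 50% GC these were 22.0%, 15.3% and 15.02%, and at 50 to under 55% they were 15.8%, 12.9% and 10.9%. Under 45% GC they were 24.5%, 19.5% and 20.2%, and at 55% and over 6.15%, 6.51% and 4.53%. The ISRE, bound by interferon regulatory factors, was in 9.42% (7.76 to 11.4%), 7.72% and 3.25%, and the STAT-binding GAS element in 7.93%, 5.95% and 5.25%. The order of the classes depended on GC content. GAS was in 5.42%, 6.81% and 6.90% at 45 to under 50% GC, and in 9.23%, 2.68% and 3.25% at 55% and over. The ISRE was in 12.1%, 15.2% and 6.40% under 45% GC, and in 9.39%, 6.81% and 5.40% at 45 to under 50%. The AP-1 consensus was in 18.8%, 16.2% and 16.6%, but at 45 to under 50% GC kept regions were below regions of all 4 lists, with 19.1% (14.9 to 24.2%) against 25.9% (24.7 to 27.1%). The direction depended on GC content, with 19.6% against 27.1% under 45% GC, 24.2% against 22.1% at 50 to under 55%, and 12.3% (8.41 to 17.7%) against 6.63% (6.20 to 7.09%) at 55% and over. PU.1, the macrophage lineage factor, had a match in 5.45% of kept regions (4.21 to 7.03%) and 8.39% of regions in all 4 lists. The AGGTCA element was in 12.7% of kept regions (10.8 to 14.9%), 12.7% of LPS-only regions and 11.5% of regions in all 4 lists, and the difference between kept and LPS-only regions had an interval of -3.00 to 2.98 points. DR4, in which such elements lie 4 bp apart in tandem, was in 2.38%, 1.87% and 1.84%. In kept regions without room, the AGGTCA element was in 14.1% (11.5 to 17.1%) and DR4 in 3.19% (2.05 to 4.93%, 19 regions). In those with room the shares were 10.7% (8.03 to 14.0%) and 1.21% (0.518 to 2.80%, 5 regions). CTCF matches were rare, with 3 kept regions. No motif searched was found in 329 kept regions (32.6%), in 43.6% of LPS-only regions and in 54.1% of regions in all 4 lists. Median GC content was 47%, 49% and 53.5% in this order.

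**Figure D4:**
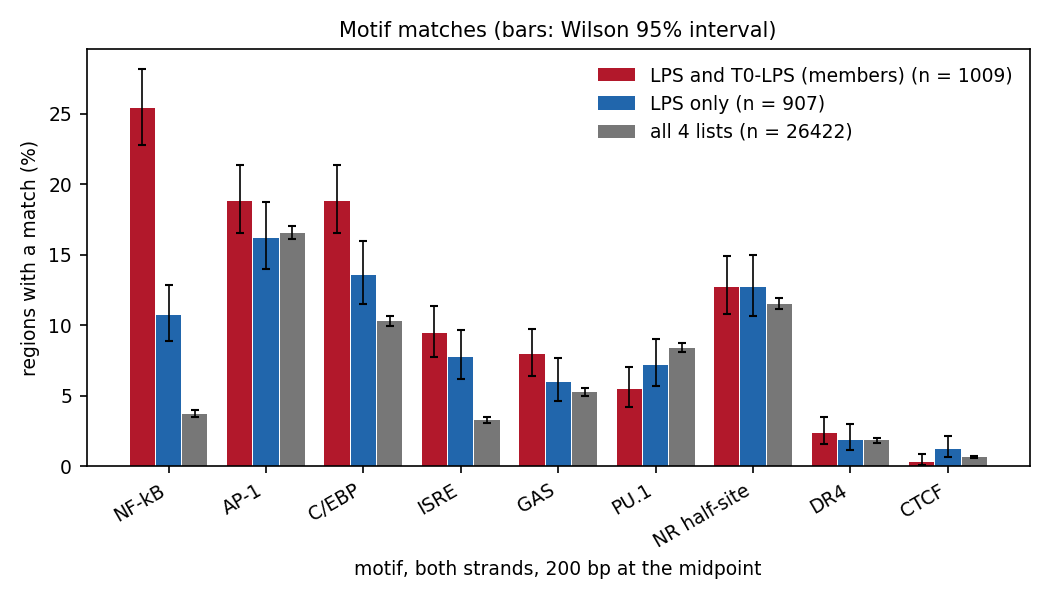
Share of regions with at least 1 match (y axis, %) for 9 motifs (x axis) in kept LPS-opened (red), LPS-only (blue) and regions of all 4 lists (grey); bars on the columns are Wilson 95% intervals. NF-kB separates the classes most, at 25.4%, 10.7% and 3.72%, and the AGGTCA element (NR half-site) is at 12.7%, 12.7% and 11.5%.

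Kept LPS-opened regions were mostly distal. Within 1 kb of an annotated start site lay 18.4% (interval 16.2 to 20.9%), against 29.5% of LPS-only regions (26.7 to 32.6%), 38.8% of the 294 regions with a T0-LPS peak alone and 43.1% of regions in all 4 lists. Introns held 48.1%, intergenic DNA 31.02%, untranslated exons 1.39% and other exons 1.09%. The median distance to the start of a protein-coding gene was 13243 bp, against 9084 bp for LPS-only regions and 5619 bp for regions in all 4 lists. In the lowest 3 LPS deciles 22.0% of kept and 30.4% of LPS-only regions lay within 1 kb. Kept regions formed small groups more often than LPS-only regions did. Measured between midpoints, another kept region lay within 12500 bp of 129 of them (12.8%, 10.8 to 14.96%), while 5.95% of LPS-only regions had another LPS-only region that near, from 907 against 1011 regions. By chromosome, the kept share of regions ran from 2.01% on chromosome 8 to 3.76% on chromosome 19, and chromosome Y had none of 9 regions.

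Inflammatory genes often had a kept region nearby. Of 80 genes for cytokines, chemokines, NF-kB subunits and inhibitors, feedback regulators and inducible enzymes, 41 (51.2%, interval 40.5 to 61.9%) had one within 100 kb of the start site, and 59 separate regions were near them. The background was 13.3% of 21938 protein-coding genes. Nearness to these genes was not particular to kept regions. An LPS-only region lay within 100 kb of 29 of the 80 (36.2%, 26.6 to 47.2%), against 13.2% of all genes. The inflammatory genes lie among many regions, with a median of 11 regions of any kind within 100 kb against 5 for all genes. Among genes with 6 to 10 regions nearby the shares were 33.3% of 27 inflammatory genes and 15.9% of all, with 11 to 15 regions 64.0% of 25 and 29.9%, and with 16 or more 78.9% of 19 and 46.4%. Within 10 kb, 17 of the 80 genes had a kept region (21.2%) against 2.18% of all genes. NF-kB matches were found in 39.0% of the 59 regions (27.6 to 51.7%) and in 24.5% of the others (21.8 to 27.3%). LPS-opened regions near these genes were kept in 64.8% of cases (59 of 91, 54.6 to 73.9%), against 52.7% of all, these 91 included. Strength in LPS was not matched here. Kept regions near these genes had a median LPS score of 182, against 158 for other kept regions.

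Cytokine genes near kept regions were 7 of 20, and those near LPS-only regions were also 7 of 20. Tnf, which encodes the main early cytokine of activated macrophages, had 5 kept regions within 100 kb and no LPS-only region. The nearest ran across its 3′ end (chr17:35198655-35199573), with scores of 278 in LPS and 256 in T0-LPS, or percentiles 43.7 and 44.4. It held both overlapping matches shown above and an AP-1 match. Il27, a cytokine that shapes T cell responses, had a kept region 12298 bp upstream with scores of 361 and 252, and Il10, the anti-inflammatory cytokine, had one 4303 bp upstream with 297 and 203. Both were lower in T0-LPS, at percentiles 43.5 and 34.2 against 55.6 and 46.7. Il18, which encodes an inflammasome-processed cytokine, had one 5912 bp downstream of its start with 217 and 166, where both lists had room.

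Chemokine genes had the highest share, 12 of 17, against 4 of 17 with an LPS-only region. The 12 rested on only 7 separate kept regions, as neighbouring genes share them. A region 4409 bp upstream of Ccl5, which attracts T cells and monocytes (chr11:83534675-83535179), had an LPS score of 447 and a T0-LPS score of 330. It had no room in Veh or T0.

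Among NF-kB subunits and inhibitors, 5 of 15 genes had an LPS-only region and 9 of 15 had a kept region. Nfkb1, which encodes the p105 and p50 subunit, had one in an intron (chr3:135670581-135671132) with scores of 515 and 328, where the Veh list had room. Tnfaip3, the A20 deubiquitinase, had one 30544 bp upstream with 397 and 265. Tnip1, a partner of A20, had 5 kept regions, the nearest 151 bp upstream of its start with 229 and 224. Nfkbie, which encodes an IkB protein, had one in an intron with 210 and 206. The Nfkb1 and Tnfaip3 regions were at percentiles 71.8 and 59.7 in LPS and at 55.4 and 45.8 in T0-LPS, while those of Tnip1 and Nfkbie were at 35.3 and 31.9 in LPS and at 38.5 and 34.7 in T0-LPS.

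Feedback regulators had an LPS-only region at 7 of 14 genes and a kept region at 7 of 14. Zc3h12c, which belongs to the family of the RNase Regnase-1, had one 6227 bp upstream with scores of 194 and 166, and Zc3h12a, Regnase-1 itself, one in an intron with 182 and 120. Socs3, an inhibitor of cytokine receptor signalling, had 3, the nearest with 151 and 136, and 2 LPS-only regions. Zfp36, which encodes the mRNA decay factor TTP, had 2, the nearest 64531 bp upstream of its start with 133 and 164. Inducible enzymes had an LPS-only region at 6 of 14 genes and a kept region at 6 of 14. At the start of Acod1, which makes itaconate, the scores were 326 and 286, and 88 bp upstream of Nos2, inducible nitric oxide synthase, 164 and 199. Percentiles were 50.9 and 49.2 at Acod1 and 22.2 and 33.0 at Nos2. Ptges, prostaglandin E synthase, had 3 kept regions, the nearest with 198 and 172. None of the kept regions named here had room.

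**Figure D5:**
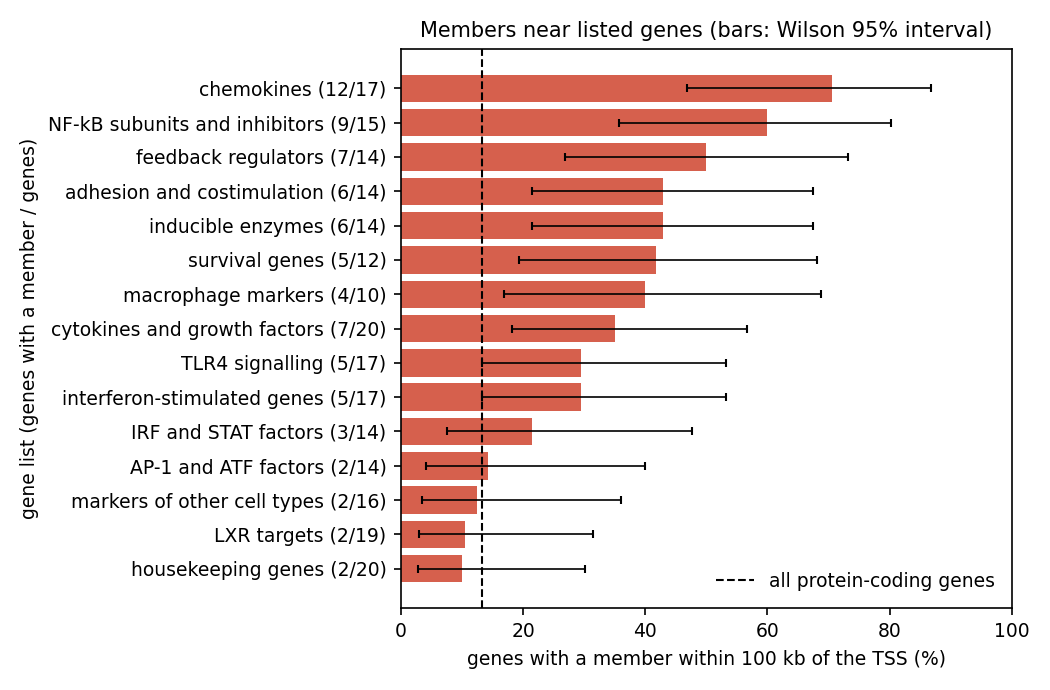
Share of the genes of each list with a kept LPS-opened region within 100 kb of the start site (x axis, %; lists on the y axis with counts of genes), with Wilson 95% intervals; the dashed line is the 13.3% of all protein-coding genes. Chemokines (12 of 17) and NF-kB subunits and inhibitors (9 of 15) are highest, and macrophage markers (4 of 10) also lie right of the line. LXR targets (2 of 19), housekeeping genes (2 of 20) and markers of other cell types (2 of 16) lie left of it.

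Adhesion and costimulation genes (6 of 14), survival genes (5 of 12), TLR4 signalling genes (5 of 17) and interferon-stimulated genes (5 of 17) lay between these. Itgal, the alpha chain of the integrin LFA-1, had a kept region 1053 bp downstream of its start with scores of 478 and 342. Bcl2a1b, a survival gene of the Bcl-2 family, had 3 kept regions, of which the nearest, in an intron, was at percentile 45.8 in LPS and 60.0 in T0-LPS. Bcl2a1b belongs to a family of near-identical copies, so reads there may be uncertain. Ripk2, a kinase of innate signalling, had one 35288 bp upstream with scores of 380 and 317. Isg15, a ubiquitin-like interferon-stimulated gene, had one at its start with 187 and 119. AP-1 and ATF factors had a kept region at 2 of 14 genes and an LPS-only region at 5 (7 regions), where 13.2% of all genes had an LPS-only region and the list had a median of 15.5 regions of any kind nearby against 5, and IRF and STAT factors had 3 of 14, with scores of 140 and 119 at Irf1 and 453 and 233 at Irf4, the latter with room in both lists. Of 12 listed genes with a kept region within 1 kb of any of their start sites, 11 had no room in Veh or T0, against 59.0% of all kept regions.

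LXR targets had a kept region at 2 of 19 genes (10.5%, interval 2.94 to 31.4%), which is near the background of 13.3%, and an LPS-only region at 7 (36.8%, 19.1 to 59.0%), on 5 separate regions, against 13.2% of all genes. These targets had a median of 10 regions of any kind nearby, against 5 for all genes. Other lists had LPS-only shares as high. They ran from 10.0% of housekeeping genes to 50.0% of feedback regulators and of survival genes, with 36.2% of the inflammatory genes together. The LXR targets with a kept region were Lpl, lipoprotein lipase, with scores of 234 and 190 at a region in an intron, and Pltp, the phospholipid transfer protein, with 129 and 110 at the nearer of its 2 regions. The cholesterol exporters Abca1 and Abcg1 had no kept region.

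The largest clusters of kept regions, chained over gaps of up to 12500 bp between their edges (132 kept regions had such a neighbour), were at Tnip1, at Tnf and at the TNF receptor genes. The Tnip1 cluster had 5 kept regions in 18613 bp (chr11:54954093-54972705), with LPS scores of 339, 133, 229, 118 and 223 from left to right and T0-LPS scores of 208, 76, 224, 134 and 219. The Tnf cluster had 4 in 20810 bp (chr17:35198061-35218870), with 95, 278, 153 and 287 in LPS and 126, 256, 126 and 224 in T0-LPS. The third cluster ran from an intron of Tnfrsf1b to one of Tnfrsf8, which encode TNF receptor 2 and CD30 (chr4:145245561-145274195). Its 4 regions had 108, 316, 137 and 142 in LPS and 82, 237, 87 and 159 in T0-LPS. Of these 13 regions 11 had no room in Veh or T0, and 6 held an NF-kB match. Over all kept regions the shares were 59.0% and 25.4%, and the 13 come from only 3 clusters. No protein-coding gene had more than 5 kept regions within 100 kb of its start. The 19 genes that had 5 were 3 around Tnip1 and 16 in the MHC segment around Tnf.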

How the data were processed

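ATAC-seq peaks of 16 libraries, 4 for each of the groups Veh, T0, LPS and T0-LPS, were analysed. Per the submitters' notes and the study's methods, the authors trimmed reads with cutadapt, aligned them with Bowtie2 to mm10, removed duplicates with SAMtools, called peaks with MACS2 at a q-value threshold of 0.001 on the 4 libraries of a group together, and used bedtools to keep peaks at macrophage enhancers. The deposited lists give each peak's position and score, and the authors' score, whose definition is not given in the sources used here, was used only for ranks and filters. Read depth per library is unknown.

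Peaks were merged into regions with Python 3.11.15. All 129556 peaks on the 21 main chromosomes ended within GRCm38 lengths. Start sites, exons and genes came from GENCODE M21. Motifs were searched on both strands in the central 200 bp: NF-kB, CTCF and DR4 (2 mismatches allowed, AGGTCA repeated, so that it overlaps AGGTCA) by name, AP-1 (TGANTCA), ISRE (GAAANNGAAA), GAS (TTCNNNGAA), C/EBP (TTGCNNAA), PU.1 (GAGGAAGT) and the nuclear receptor element AGGTCA. The merging, numbering and motif steps were tested on simulated data. No test was made, as peaks were pooled. Named were the 10 strongest regions, at most 4 genes per list by the strength of the region nearest to the gene, the 3 largest clusters and the genes with most regions. Regions and gene lists were chosen with earlier results of these data known. Regions with the largest change, the strongest without room, Abca1 and Abcg1 were picked after their values were seen. Some named regions and their sequences are not reported here.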

Additional observations from a re-analysis of the deposited data

How the results depend on the processing

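Other definitions gave between 884 and 1350 kept LPS-opened regions, within 1.5 times of the reported 1011, except that requiring no room for a removed peak left 596. The share of LPS-opened regions kept was 50.0% with a minimum score of 100 and 64.2% with lists of equal length. The share ranked lower in T0-LPS was 55.5% with percentiles among regions that held both peaks. Within 500 bp of a start site lay 10.7%, and within 1 kb of a protein-coding start 15.7%. The NF-kB share was 16.8% in a 100-bp window, 31.02% over whole regions (8.94% in regions of all 4 lists), 21.5% with reciprocal overlap of peaks by at least 50% and 21.8% with equal lengths, and its ratio to regions of all 4 lists was 9.68 in the lowest 3 LPS deciles and, chosen after seeing the data, 8.75 at 45 to 50% GC and 3.47 over whole regions. Within 10 kb, 17 inflammatory genes had a kept region. The cause of these moves was not tested. The strata by mean percentile, GC and number of nearby regions, and the NF-kB ratios away from start sites (6.96) and without room (7.49), were chosen after the data were seen. No paired analysis was possible because each list pools the 4 libraries of its group, and for the same reason no replicate could be left out. Weak peaks limit the reading: 287 kept regions had a T0-LPS score under 100 and 9 one under 50, and the read depth behind each list is unknown.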
